A study of Rattus norvegicus with 6 samples.

Results

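Genes of protein processing in the endoplasmic reticulum (ER) were followed in rat vascular smooth muscle cells (VSMCs). Members were the genes that the authors' table places on the KEGG map of that name, which 153 of 13526 genes carry. Left out were 3 genes that also carry the cell cycle map and, by symbol, Atf4, Ddit3, Nfe2l2, Eif2ak2 and Ero1a, so that 145 members remained, 144 of them with a symbol. The members were sorted into 9 steps: translocation (13), oligosaccharyltransferase (7), lectin cycle and glycan trimming (11), ER lumen chaperones (15), cytosolic chaperones (19), ER-associated degradation or ERAD (46), stress sensors and their effectors (13), stress kinases and death effectors (8) and ER exit (13).

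The samples were primary wild-type VSMCs from the thoracic aorta of rats, used after several passages, and RNA was sequenced from 3 samples per group. Both groups were cultured in osteogenic media (OM), which holds 10 mM β-glycerophosphate and 3.5 mM CaCl2 and calcifies these cells, and the labels give 5 days. The OM plus EMPA group also received 1 μM empagliflozin, which blocks the glucose transporter SGLT2, and the OM group did not. The question was which genes differ when empagliflozin is added. Cells without OM were not analysed here, the paper's text gives another duration than the labels, and the titles of the samples call the medium Pi, the paper's name for a separate phosphate treatment. It is not stated whether the replicates were different animals or dishes, so p-values cover just the spread among these libraries, possibly a technical one.

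Values are TPM, transcript abundances that are corrected for transcript length and summed to 997954 to 998293 in each library, so that the sequencing depth is unknown. Differences are OM plus EMPA minus OM on the scale of log2(TPM + 1), and a gene was called at an adjusted p of at most 0.05 by limma over the 12564 genes whose mean reached 1 TPM. Smooth muscle markers were present, and part of the list moved with the group. Their summed level, most of it Tagln, was 2478 to 2925 TPM with EMPA and 1756 to 2158 TPM in OM, with 7 of 8 markers in the table, 4 of them called higher (Cnn1, Lmod1, Acta2 and Tagln), Smtn (0.15) and Myh11 (-0.17) not called, Myocd below the filter and Des not listed. Of 9 macrophage and leukocyte markers 3 were listed, summing to 145 to 152 against 153 to 162 TPM. Cd68 was called lower, and Ptprc, Csf1r and Itgam were not listed. Fcer1g, most of that sum, and Cd14 overlapped between groups and were not called (-0.0037 and -0.15, limma adjusted p = 0.972 and 0.542). Endothelial and neural markers summed to at most 3.89 and 1.49 TPM. Genes encoded in mitochondria took 10.3 to 10.9% of TPM with EMPA and 8.0 to 9.69% in OM. In such bulk samples fewer cells of a type and less RNA per cell cannot be told apart.

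Secreted and membrane proteins enter the ER through the Sec61 channel, receive N-glycans, and are folded by Hsp70, Hsp90 and protein disulfide isomerase family chaperones and by the lectins calnexin and calreticulin. Chains that fail to fold are moved back to the cytosol, marked with ubiquitin and degraded, and folded ones leave in COPII vesicles. The sensors IRE1 (Ern1), PERK (Eif2ak3) and ATF6 read the folding load and drive the unfolded protein response, which raises chaperone and ERAD transcripts. VSMCs that make extracellular matrix load this route with collagen, whose maturation needs the protein disulfide isomerase P4hb as a subunit of prolyl 4-hydroxylase.

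Few members were called. Of 144 tested members 4 were called (2.78%), where 6.92% of all tested genes were called. The heat shock protein Cryab and the membrane protein Ckap4 rose, and the disulfide isomerase P4hb and the ubiquitin-conjugating enzyme Ube2d3 fell (1.39% in each direction, against 2.06% of all genes higher and 4.86% lower). Among genes whose mean reached 10 TPM, 2.96% of members and 8.4% of all genes were called. On the scale of TPM + 1, which shrinks differences of genes with low TPM, no member differed by 1.5-fold, as 3.18% of all genes did. An unadjusted p under 0.05 was reached by 35 members, 16 higher and 19 lower, which is 24.3% against 24.1% of all genes. Which members passed the threshold depended on the scaling, and none of the 4 called members changed sign. With TPM scaled by the median ratio of genes, which moved the median of all genes from -0.054 to 0.00028, 10 members were higher and 0 lower by limma (6.94% and 0%, against 3.14% and 3.03% of all genes), with 33 higher and 8 lower at an unadjusted p under 0.05. With TPM rescaled without mitochondrial genes, 5 of 145 members were higher and 1 lower, against 296 and 483 of 12671 genes. Cryab and Ckap4 were called under all 3 scalings.

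The small number of calls came with high levels and narrow errors. Members had a median level of 80.5 TPM against 18.5 TPM over all tested genes, and a median standard error (SE) of the difference of 0.051 against 0.081. The 95% interval of the difference lay within 1.2-fold in either direction for 109 members (75.7%, against 37.9% of all genes) and within 1.5-fold for 140 (97.2%, against 86.2%). The exceptions to the wider bound were Cryab, Ppp1r15a, Hspa4l and Derl3. The median difference of the members was -0.020, with 63 above 0 and 81 below (56.3% below, against 65.1% of all genes, whose median was -0.054), and turned to 0.038 under median-ratio scaling. Groups did not overlap, with all 3 EMPA libraries above all 3 OM libraries, for 26 members (18.1%, against 7.85% of all genes), and the reverse held for 32 (22.2%, against 22.5%), together 40.3% of members and 30.4% of all genes.

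**Figure D1:**
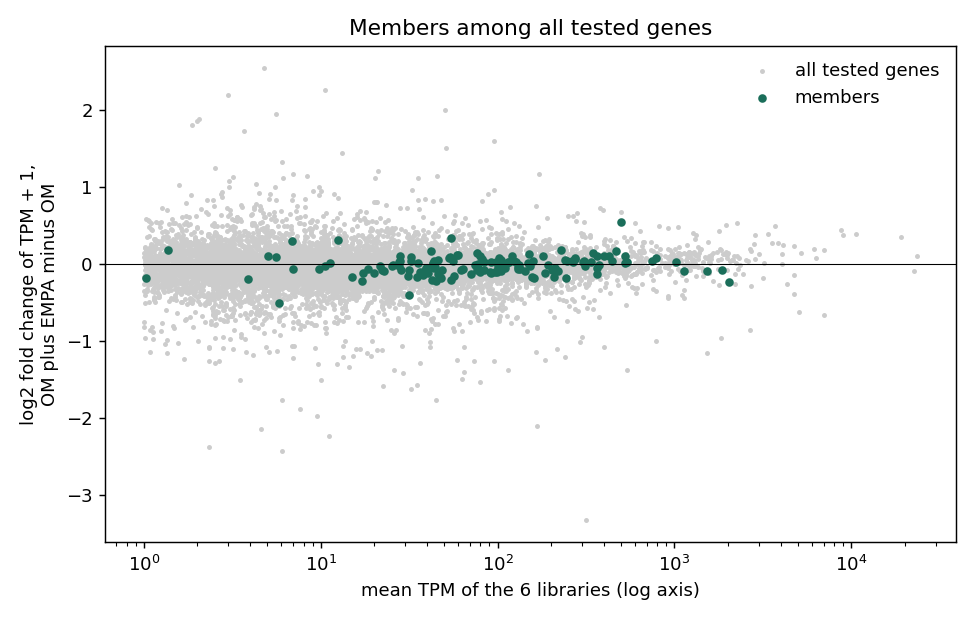
Difference between groups (log2 fold change of TPM + 1, OM plus EMPA minus OM) against the mean TPM of the 6 libraries on a log axis, for all 12564 tested genes (grey) and the 144 tested members (green). The members lie near 0 over the whole range of levels, and no member lies beyond 1.5-fold, which 3.18% of all genes do.

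**Figure D2:**
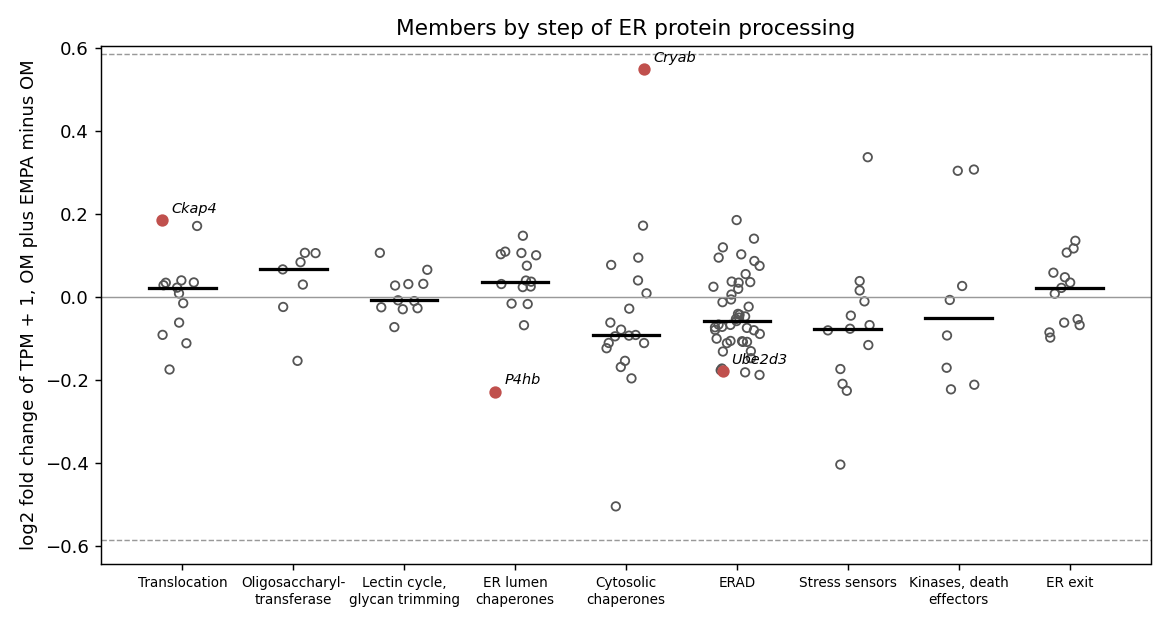
Difference of each tested member by step, with the 4 called members filled and named, the median of each step as a bar and 1.5-fold as dashed lines. ER lumen chaperones had 11 of 15 members above 0, and cytosolic chaperones, ERAD and stress sensors had 13 of 19, 31 of 45 and 10 of 13 below 0, where 65.1% of all tested genes were below 0.

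In the translocation step 1 of 13 members was called (7.69%, against 6.92% of all genes). Ckap4 (also CLIMP-63), which spaces and anchors the sheets of the rough ER, stood at 234.29, 244.07 and 249 TPM in the EMPA libraries and at 206.1, 219.13 and 213.88 TPM in the OM libraries. All EMPA libraries were above all OM libraries. The log2 fold change was 0.19 (SE 0.043, 95% interval 0.086 to 0.285, limma adjusted p = 0.0443). The call was lost when any 1 of the 6 libraries was left out (adjusted p = 0.0636 to 0.130). Such fits called fewer genes of any kind, 80 to 216 higher and 245 to 438 lower, against 259 and 611 with all libraries. Its gene lies on chromosome 7, 19230203 to 19238914, plus strand, in the coordinates of the authors' table, for which no source used here names a build.

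The channel itself showed no call. Sec61a1, its pore subunit, was at 265 ± 1.14 against 259 ± 4.44 TPM (0.034, 95% interval -0.049 to 0.117), and the small subunits Sec61b and Sec61g at 447 ± 13.0 against 436 ± 19.0 TPM and 523 ± 11.6 against 521 ± 43.8 TPM (SD, n = 3 per group here and below). Sec61a2, the less abundant pore gene, was at 38.7 ± 1.21 against 41.8 ± 0.818 TPM (-0.11, limma adjusted p = 0.199). The TRAP complex, which assists the entry of some signal sequences, held values in both directions. Its subunit Ssr3 was at 184.84, 199.98 and 202.79 TPM with EMPA and 224.45, 217.45 and 221.08 TPM in OM (-0.17, SE 0.046, limma adjusted p = 0.0657). Ssr4 was at 478.03, 499.61 and 496.43 TPM against 450.78, 410.92 and 448.31 TPM (0.17, SE 0.049, limma adjusted p = 0.0819). Neither passed the threshold, though the libraries of the groups did not overlap for either, and Ssr4 passed it under median-ratio scaling (limma adjusted p = 0.0422). Within a library, which no scaling can change, Ssr3 made up 14.3 ± 0.497% of the summed TPM of Ssr1 to Ssr4 with EMPA and 16.5 ± 0.123% in OM, and Ssr4 35.8 ± 0.294% and 32.7 ± 0.998%. These shares were chosen after the values were seen and were not tested. Ssr1 and Ssr2 were within 1.2-fold in their intervals (-0.054 to 0.134 and -0.119 to 0.089).

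The oligosaccharyltransferase transfers the N-glycan to the entering chain. Of its 7 members 0 were called by limma and 3 had an unadjusted p under 0.05 (6.92% and 24.1% of all genes). The ribophorins Rpn1 and Rpn2, shared subunits of the enzyme, were at 440 ± 2.12 against 409 ± 3.20 TPM (0.11, limma adjusted p = 0.119) and 378 ± 1.40 against 352 ± 4.86 TPM (0.11, limma adjusted p = 0.124). Both passed the threshold under median-ratio scaling (limma adjusted p = 0.0396 and 0.0378). Ddost, a further shared subunit, was at 280 ± 6.39 against 267 ± 2.27 TPM. For these 3 genes all EMPA libraries were above all OM libraries. Tusc3, the oxidoreductase subunit of the form built on Stt3b, had the reverse order, at 53.7 ± 2.3 against 59.8 ± 0.906 TPM (-0.15, limma adjusted p = 0.0974). The catalytic subunits Stt3a and Stt3b had overlapping libraries, with intervals of -0.070 to 0.130 and -0.025 to 0.193.

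In the lectin cycle calnexin (Canx) and calreticulin (Calr) hold glycoproteins until they are folded. The cycle had 0 of 11 members called by limma and 1 with an unadjusted p under 0.05 (6.92% and 24.1% of all genes). Calr was the second most abundant member, at 1866.9, 1738.5 and 1820.5 TPM with EMPA and 1919.8, 1885.3 and 1897.7 TPM in OM. Its groups did not overlap, and its log2 fold change was -0.072 (95% interval -0.182 to 0.038, limma adjusted p = 0.396). Canx was at 542 ± 21.0 against 530 ± 2.02 TPM (0.032, 95% interval -0.067 to 0.130). Man1b1, which trims mannose from glycans, had the smallest p of the step, at 82.8 ± 1.58 against 76.9 ± 2.43 TPM (0.11, limma adjusted p = 0.184). The row AABR07019403.1, which the table describes as UDP-glucose glycoprotein glucosyltransferase 2, was at 83.1 ± 2.36 against 79.3 ± 0.693 TPM (0.065, limma adjusted p = 0.370). The glucosidase II subunit Prkcsh was at 307 ± 5.77 against 301 ± 2.86 TPM (0.028, 95% interval -0.057 to 0.112).

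Among the 15 ER lumen chaperones and oxidoreductases, P4hb was called lower and the others were not called. P4hb is the beta subunit of prolyl 4-hydroxylase and a disulfide isomerase in its own right. It was the most abundant member, at 1839.56, 1857.24 and 1949.85 TPM with EMPA and 2174.34, 2172.59 and 2264.18 TPM in OM. The highest EMPA library was below the lowest OM library. The log2 fold change was -0.23 (SE 0.049, 95% interval -0.340 to -0.115, limma adjusted p = 0.0350), and the mean TPM fell by 14.6%. Leaving out any 1 of the 6 libraries ended the call (adjusted p = 0.0573 to 0.129), as did median-ratio scaling (-0.17, limma adjusted p = 0.107) and the scaling without mitochondrial genes (-0.20, limma adjusted p = 0.0541). The gene lies on chromosome 10, 105836982 to 105848500, minus strand.

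The other disulfide isomerases had values above 0. Pdia4 was at 360.23, 364.01 and 368.06 TPM with EMPA and 334.53, 324.35 and 327.14 TPM in OM, without overlap (0.15, SE 0.036, limma adjusted p = 0.0527). It missed the threshold on TPM as deposited and passed it under median-ratio scaling (limma adjusted p = 0.0193) and without mitochondrial genes (limma adjusted p = 0.0308). Pdia6 was at 544 ± 6.37 against 507 ± 1.34 TPM (0.10, limma adjusted p = 0.145, and 0.042 under median-ratio scaling), Txndc5 at 415 ± 2.61 against 387 ± 10.2 TPM (0.10, limma adjusted p = 0.157), and Pdia3, which works with calnexin and calreticulin, at 1030 ± 9.81 against 1013 ± 6.31 TPM (0.024, 95% interval -0.066 to 0.113). In all 3 the libraries of the groups did not overlap. In terms that no scaling can change, P4hb made up 28.7 ± 0.465% of the summed TPM of the 15 lumenal members with EMPA and 33.0 ± 0.540% in OM, and Pdia4 was 19.4 ± 0.413% of P4hb against 14.9 ± 0.468%. These ratios were chosen after the values were seen and are given without a test.

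The main Hsp70 and Hsp90 of the lumen were not called. Hspa5 (BiP) was at 808.23, 773.79 and 840.71 TPM with EMPA and 787.06, 748.45 and 763.03 TPM in OM. Its libraries overlapped, and the difference was 0.075 (95% interval -0.033 to 0.184, limma adjusted p = 0.370). Hsp90b1 (GRP94) was at 761 ± 13.1 against 740 ± 2.64 TPM (0.040, 95% interval -0.049 to 0.128). Hyou1, the exchange factor of BiP, was at 126 ± 6.41 against 117 ± 1.40 TPM (0.11, 95% interval -0.003 to 0.215, limma adjusted p = 0.218). The intervals of Hspa5 and Hsp90b1 lie within 1.2-fold.

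**Figure D3:**
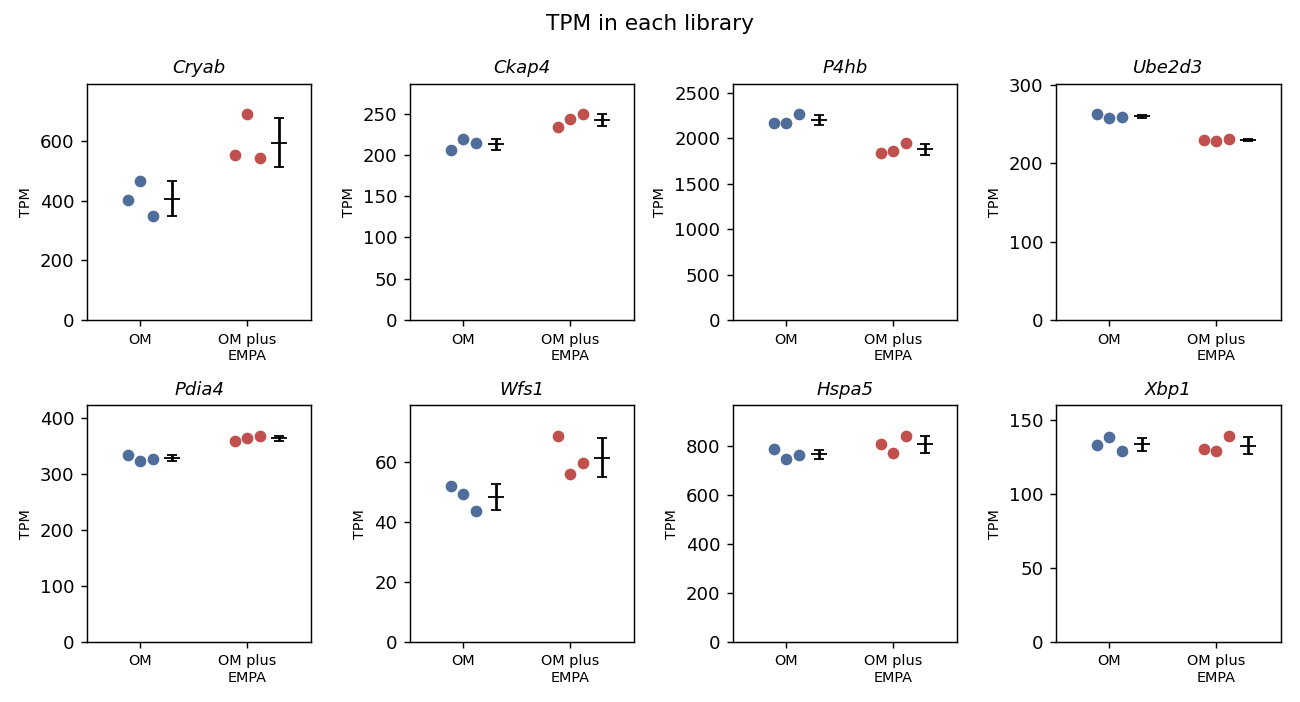
TPM in each library (points, linear axes from 0) of the 4 called members and of Pdia4, Wfs1, Hspa5 and Xbp1, with the mean and SD of each group beside the points (n = 3). The groups are apart for Cryab, Ckap4, P4hb, Ube2d3, Pdia4 and Wfs1, and overlap for Hspa5 and Xbp1.

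Cryab stood out among the 19 cytosolic chaperones. It encodes alpha B-crystallin, a small heat shock protein of muscle and lens that binds unfolding proteins and filaments. It was at 551.88, 688.49 and 541.72 TPM with EMPA and at 402.74, 467.02 and 349.89 TPM in OM. The groups did not overlap, and the log2 fold change of 0.55 was the furthest above 0 of all members (SE 0.12, 95% interval 0.264 to 0.830, limma adjusted p = 0.0394). The call held under both other scalings and was lost in 5 of 6 fits that left out 1 library, those without any 1 of the EMPA libraries and without OM replicate 1 or 3 (adjusted p = 0.0604 to 0.109). It held without OM replicate 2 (0.65, limma adjusted p = 0.0301). Cryab lies on chromosome 8, 51093441 to 51099161, plus strand, and 1630 bases of it overlap Hspb2 on the opposite strand, whose own difference was 0.023 (limma adjusted p = 0.830). The kit named in the labels does not mark strand, so reads of this overlap cannot be assigned. Overlaps with another gene were present for 38 members, and just some of them are given here. Muscle expresses Cryab, and 4 of the 7 listed smooth muscle markers were called higher too, such as Acta2 at 431 to 559 TPM with EMPA and 257 to 367 TPM in OM, while Myh11 was at 13.7 to 18.4 TPM against 16.4 to 20.9 TPM (-0.17, limma adjusted p = 0.455) and Smtn at 51.9 to 54.6 TPM against 44.4 to 50.1 TPM (0.15, limma adjusted p = 0.166). The part of these markers' shift in the difference of Cryab was not tested.

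The remaining cytosolic chaperones were not called, and 13 of the 19 members (68.4%, against 65.1% of all genes) had a difference below 0 (median -0.091, and -0.032 under median-ratio scaling). The inducible Hsp90 gene Hsp90aa1 was at 350 ± 3.43 against 381 ± 8.24 TPM (-0.12, limma adjusted p = 0.0952) and the constitutive Hsp90ab1 at 1093 ± 13.6 against 1164 ± 25.7 TPM (-0.091, limma adjusted p = 0.227). The constitutive Hsp70 gene Hspa8 was at 1504.3, 1469.7 and 1481.4 TPM with EMPA and 1692, 1514.1 and 1551 TPM in OM (-0.093, limma adjusted p = 0.338). For these 3 genes all EMPA libraries were below all OM libraries. Dnajb2, an Hsp40 that hands clients to the proteasome, was at 44.5 ± 3.82 against 39.3 ± 1.26 TPM (0.17, limma adjusted p = 0.172), and the Hsp70 exchange factor Hspbp1 at 32.8 ± 2.69 against 36.9 ± 1.55 TPM (-0.17, limma adjusted p = 0.186). Hspa4l had the difference furthest below 0 of all members, -0.50, with a wide interval of -1.069 to 0.063. Its level was 3.06 to 5.47 TPM with EMPA and 4.8 to 9.17 TPM in OM, and the groups overlapped.

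Of the 46 ERAD members 45 were tested, since the mean of the F-box protein Fbxo2 was 0.988 TPM, and Ube2d3 was called. Ube2d3 is a ubiquitin-conjugating enzyme that serves many ligases. It was at 230.10, 227.99 and 230.48 TPM with EMPA and 262.32, 257.91 and 259.18 TPM in OM. The spread within each group was far smaller than the gap between them. The log2 fold change was -0.18 (SE 0.035, 95% interval -0.258 to -0.098, limma adjusted p = 0.0265), and the mean TPM fell by 11.7%. The call was lost when any 1 of the 6 libraries was left out (adjusted p = 0.0573 to 0.0892) and under median-ratio scaling (-0.12, limma adjusted p = 0.0880). It lies on chromosome 2, 223868339 to 223899622, plus strand, with 608 bases shared with a gene without a symbol on the opposite strand. Its close relative Ube2d2 was at 87.8 ± 1.57 against 94.6 ± 2.0 TPM (-0.11, limma adjusted p = 0.158).

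Of the 45 tested ERAD members 14 were above 0, none of them called. Edem1, which acts on misfolded glycoproteins, was at 81.45, 80.14 and 80.24 TPM with EMPA and 70.51, 73.26 and 75.45 TPM in OM (0.14, SE 0.042, limma adjusted p = 0.0947), without overlap. It passed under median-ratio scaling (limma adjusted p = 0.0383). Sel1l and Edem3 were also above without overlap, at 55.7 ± 0.264 against 52.4 ± 3.05 TPM and 46.7 ± 0.376 against 44.9 ± 0.884 TPM, and the ligase Syvn1 (HRD1), the partner of Sel1l, overlapped at 33.0 ± 2.35 against 32.2 ± 2.52 TPM (0.037, 95% interval -0.139 to 0.214). Herpud1, an adaptor of the same complex and a target of the stress response, was at 69.93, 61.53 and 54.61 TPM against 59.13, 54.99 and 56.15 TPM (0.12, 95% interval -0.078 to 0.316). Derl3 was near the lower limit of the test, at 1.11 to 1.98 against 0.86 to 1.73 TPM (0.19, 95% interval -0.267 to 0.637). Selenos was at 282 ± 4.42 against 268 ± 17.4 TPM (0.075, limma adjusted p = 0.430). Other membrane members, such as the retrotranslocation factor Derl2 (-0.10) and the ligase Rnf5 (-0.13), were below 0 with overlapping libraries.

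In the cytosol, the segregase Vcp, which pulls ubiquitinated chains out of the membrane, was the most abundant ERAD member at 357 ± 11.1 against 371 ± 5.01 TPM (-0.058, 95% interval -0.150 to 0.035). Its cofactors Ubxn1 and Nploc4 and the shuttle protein Ubqln2 were below 0 without overlap. Ubxn1 was at 150 ± 6.68 against 170 ± 11.3 TPM (-0.18, limma adjusted p = 0.119) and Ubqln2 at 44.8 ± 2.86 against 51.1 ± 3.19 TPM (-0.19, limma adjusted p = 0.136). Ubxn1 shares 26090 bases with Ganab on the same strand, whose level was 192 TPM (-0.0098, limma adjusted p = 0.903). In all, 31 of 45 tested ERAD members (68.9%) were below 0 with a median of -0.058, close to the 65.1% and -0.054 of all tested genes, and the median became 0.0010 under median-ratio scaling.

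The sensors of the unfolded protein response were not called. Xbp1, the transcription factor spliced by IRE1, was at 129.92, 128.48 and 138.74 TPM with EMPA and 132.92, 138 and 129.05 TPM in OM. The libraries overlapped, with a difference of -0.010 (95% interval -0.119 to 0.099, limma adjusted p = 0.917). TPM of the gene do not separate its spliced from its unspliced form. Ern1 was at 9.51 ± 1.39 against 10.1 ± 1.90 TPM (-0.068, 95% interval -0.394 to 0.259), Eif2ak3 at 28.4 ± 0.997 against 27.6 ± 1.83 TPM (0.038, 95% interval -0.107 to 0.183), and Atf6 at 43.6 ± 1.43 against 45.0 ± 2.89 TPM (-0.045, 95% interval -0.181 to 0.091). The row of Mbtps2, a protease that activates ATF6, is described in the table as YY2 transcription factor, so its identity is uncertain.

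Around the sensors, 0 of 13 members were called by limma and 5 had an unadjusted p under 0.05 (6.92% and 24.1% of all genes). Wfs1, an ER membrane protein that restrains ATF6, was at 68.51, 55.97 and 59.45 TPM with EMPA and 51.97, 49.28 and 43.67 TPM in OM, without overlap (0.34, SE 0.089, limma adjusted p = 0.0658). It passed under median-ratio scaling (limma adjusted p = 0.0343). The heme-regulated kinase Eif2ak1 was at 50.8 ± 3.48 against 58.8 ± 1.78 TPM (-0.21, limma adjusted p = 0.0780) and its substrate Eif2s1, the alpha subunit of eIF2, at 148 ± 5.87 against 167 ± 7.56 TPM (-0.17, limma adjusted p = 0.0819). Ppp1r15a (GADD34), the stress-induced subunit of the phosphatase that reverses that phosphorylation, was at 26.3, 23.51 and 30.93 TPM with EMPA and 41.68, 33.32 and 32.72 TPM in OM (-0.40, SE 0.12, 95% interval -0.681 to -0.125, limma adjusted p = 0.0921). The groups did not overlap for these 3 genes. Ppp1r15a shares 3114 bases with Nucb1 on the same strand, whose level was 420 TPM. How reads of that overlap were divided affects the value of Ppp1r15a. Eif2ak1 shares 5054 bases with Aimp2 on the opposite strand, which was at 46.7 TPM (-0.16, limma adjusted p = 0.104). Reads of that overlap cannot be assigned either.

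The stress kinases and death effectors had 0 of 8 called by limma and 4 with an unadjusted p under 0.05. Of all tested genes, 6.92% were called and 24.1% had such a p. Mapk8 (JNK1) was at 12.86, 13.82 and 15.08 TPM with EMPA and 11.33, 10.89 and 10.91 TPM in OM (0.31, SE 0.075, limma adjusted p = 0.0524), and its paralogue Mapk9 (JNK2) at 44.71, 42.82 and 46.24 TPM against 49.77, 49.53 and 51.54 TPM (-0.17, SE 0.048, limma adjusted p = 0.0780). Neither pair of groups overlapped, and Mapk8 was 31.2 ± 2.13% of Mapk9 with EMPA and 21.97 ± 0.798% in OM, a ratio chosen after the values were seen. The paralogues share sequence, and how the authors' estimate divided ambiguous reads between them was not tested. Mapk8 passed under median-ratio scaling and without mitochondrial genes (limma adjusted p = 0.0345 under the first). Map3k5 (ASK1), a kinase upstream of JNK, was at 7.66 ± 0.344 against 6.03 ± 0.606 TPM (0.30, limma adjusted p = 0.0952), and the pore-forming death protein Bak1 at 39.3 ± 0.641 against 45.6 ± 2.51 TPM (-0.21, limma adjusted p = 0.0568). The calpains Capn1 and Capn2 were at 99.0 ± 2.28 against 97.8 ± 14.3 TPM and 101 ± 6.69 against 107 ± 5.69 TPM, and both overlapped.

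At ER exit 0 of 13 members were called by limma and 2 had an unadjusted p under 0.05 (6.92% and 24.1% of all genes). Lman1 (ERGIC-53), the cargo receptor that cycles to the Golgi, was at 151.23, 161.69 and 157.27 TPM with EMPA and 136.84, 147.85 and 143.22 TPM in OM (0.14, SE 0.046, limma adjusted p = 0.127). The COPII coat proteins Sec23a and Sec24a were at 61.7 ± 2.89 against 56.8 ± 1.11 TPM (0.12, limma adjusted p = 0.194) and 29.2 ± 0.321 against 27.1 ± 1.51 TPM (0.11, limma adjusted p = 0.291). These 3 were above without overlap. Sec24c, another cargo adaptor of the coat, was below without overlap, at 36.3 ± 0.626 against 38.9 ± 0.690 TPM (-0.098, limma adjusted p = 0.232). The GTPase Sar1a and the lectin Lman2, the most abundant of the step, overlapped at 249 ± 4.27 against 243 ± 9.62 TPM and 245 ± 7.71 against 235 ± 13.1 TPM.

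Summed over members, the pathway took 2.59% of all TPM with EMPA and 2.62% in OM. The sum was 25642 to 26049 TPM against 25910 to 26413 TPM, and the groups overlapped. Step by step the sums differed by -5.19% to 3.94%. The oligosaccharyltransferase sum was 3.94% higher (1877 to 1934 against 1817 to 1852 TPM) and that of ER exit 2.19% higher (1373 to 1399 against 1344 to 1370 TPM), both without overlap. The ERAD sum differed by -3.47% (3489 to 3615 against 3663 to 3729 TPM) and that of the stress sensors by -5.19% (685 to 715 against 728 to 760 TPM), also without overlap. Without their most abundant member the groups overlapped for the oligosaccharyltransferase (2.88% without Rpn1) and for the stress sensors (-3.40% without Eif2s1). Under median-ratio scaling the ERAD sum changed sign to 0.550% and that of the stress sensors was -1.24%. The lumenal chaperones differed by -1.74% in sum, with overlap, and without P4hb by 4.61%, without overlap, so that 1 gene set the sign. These sums are descriptions and were not tested.

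**Figure D4:**
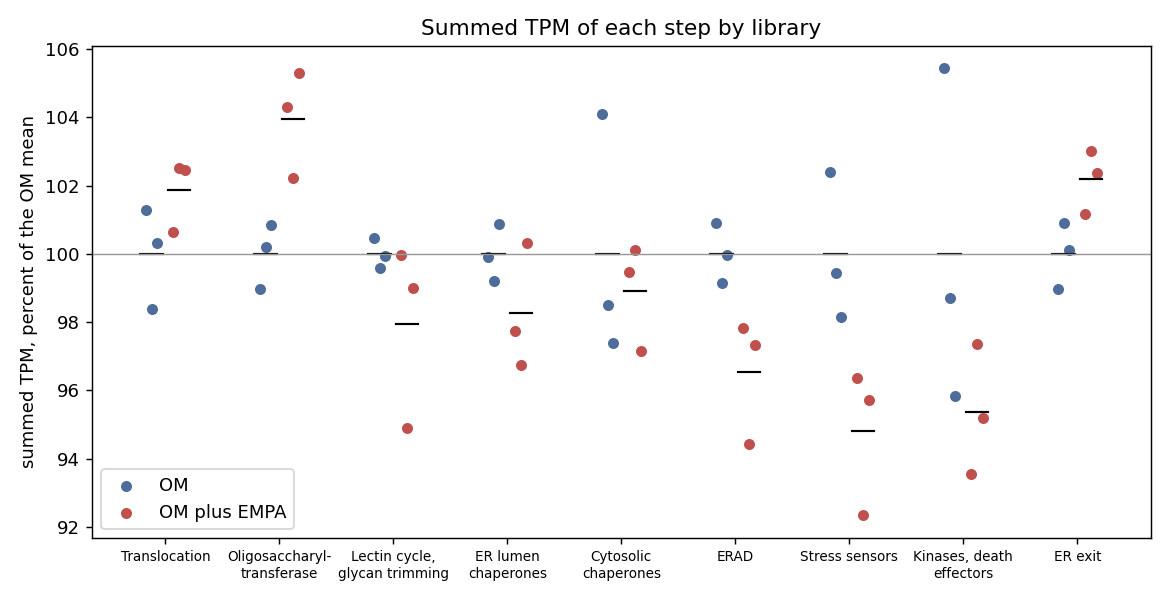
Summed TPM of each step in each library, as a percentage of the mean of the 3 OM libraries, with group means as bars (the axis does not start at 0). The groups are apart for the oligosaccharyltransferase and ER exit (EMPA above) and for ERAD and the stress sensors (EMPA below), and overlap in the other 5 steps.

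Promoters of some members carried the elements that ATF6 and XBP1 bind. The choice of members did not use sequence, but the map holds known targets of the stress response. An excess of these elements is therefore not independent of that choice. RefSeq promoter windows of rat build GRCr8 ran from 250 bases before to 50 bases after the start. They were matched for 117 of 145 members, by Ensembl identifier or, where that gave none, by symbol. The ER stress element (ERSE, CCAAT and CCACG with 9 bases between them, either strand) was in 8 of them (6.84%) and in 21 of 27457 windows in all (0.0765%). The windows in all are not limited to the genes tested here. Its shorter form ERSE-II (ATTGG and CCACG with 1 base between them) was in 3 (2.56%, against 0.0546%). The XBP1 element TGACGTGG was in 9 (7.69%, against 0.637%), of which the site in Hyou1 overlaps an ERSE-II. These 9 were Ckap4, Mapk8, Hyou1, Ube2g2, Ube2j1, Vcp, Dnajc10, Sec23a and Bag2, and of them Ckap4 was called. The heat shock element (GAA, TTC and GAA with 2 bases between each) was in 3, those of Hspa8, Dnaja1 and Hsph1 (2.56%, against 0.736%). With 1 mismatch allowed its order turned, to 5.13% of member windows against 8.12% of all. ERSE or ERSE-II windows belonged to 6 lumenal chaperone genes (Hspa5, Hsp90b1, Dnajc3, Ero1b, Dnajb11 and Hyou1), to Calr and Canx, to Derl3 and Herpud1, and to Xbp1. The stretches shown, of 3 chaperones, a lectin, an ERAD adaptor and a transcription factor that the stress response is known to induce, are printed 5′ to 3′ on the gene's strand with the fixed letters of each element in capitals and with up to 30 bases on each side. Hsp90b1 and Hyou1 hold 2 elements each.
Hspa5 ERSE, chr3:38452943-38453015, plus strand: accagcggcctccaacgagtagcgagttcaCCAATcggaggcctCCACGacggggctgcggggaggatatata
Hsp90b1 ERSE, chr7:23012317-23012499, minus strand: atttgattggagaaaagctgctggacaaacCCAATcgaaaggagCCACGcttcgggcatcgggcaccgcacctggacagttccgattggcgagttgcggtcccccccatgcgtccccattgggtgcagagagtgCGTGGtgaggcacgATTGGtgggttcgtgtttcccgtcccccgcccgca
Calr ERSE, chr19:40213117-40213183, plus strand: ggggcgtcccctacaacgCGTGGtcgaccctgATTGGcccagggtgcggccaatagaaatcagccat
Xbp1 ERSE, chr14:84604528-84604606, plus strand: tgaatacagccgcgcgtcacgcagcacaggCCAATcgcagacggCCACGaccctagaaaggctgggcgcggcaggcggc
Herpud1 ERSE-II, chr19:10614791-10614861, minus strand: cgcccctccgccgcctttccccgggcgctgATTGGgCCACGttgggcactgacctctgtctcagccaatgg
Hyou1 ERSE-II, chr8:53602664-53602834, plus strand: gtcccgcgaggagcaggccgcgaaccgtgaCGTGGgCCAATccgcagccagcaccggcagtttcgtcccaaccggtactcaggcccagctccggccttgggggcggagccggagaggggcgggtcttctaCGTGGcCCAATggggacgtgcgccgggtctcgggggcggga

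Of the 11 members with an ERSE or ERSE-II, 0 were called by limma and 0 had an unadjusted p under 0.05. These shares were 6.92% and 24.1% over all genes. The differences of the 11 members ran from -0.072 (Calr) to 0.19 (Derl3), with a smallest limma adjusted p of 0.218 (Hyou1). Above 0 were 7 (36.4% below 0, against 65.1% of all genes). Their summed level was 4322 to 4552 TPM with EMPA and 4429 to 4521 TPM in OM. The sums overlapped. Members with just the XBP1 element are not in these counts, and of them Ckap4 was called higher (limma adjusted p = 0.0443). A match of these letters is a description and does not show that a factor binds there.

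**Figure D5:**
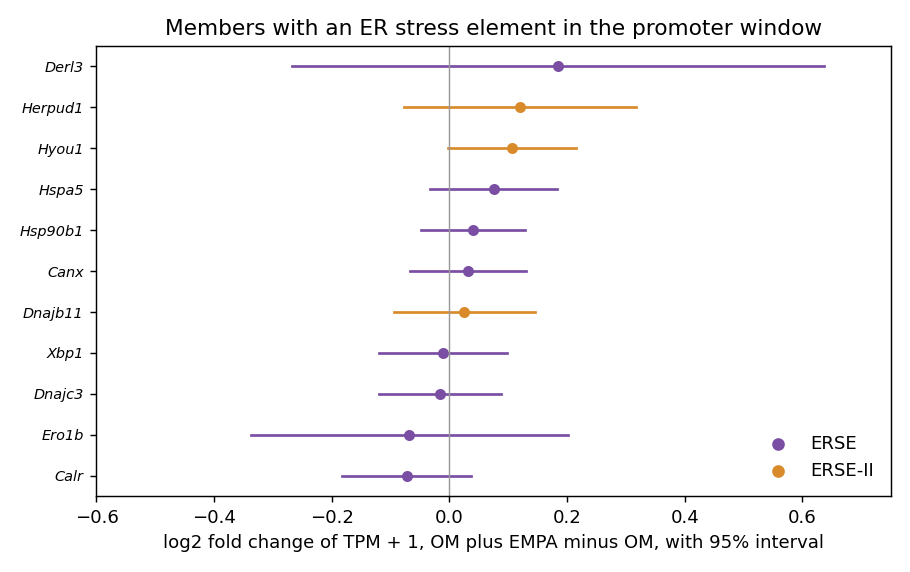
Difference (log2 fold change of TPM + 1, OM plus EMPA minus OM) of the 11 members with an ERSE (purple) or ERSE-II (orange) in the promoter window, with 95% intervals. All intervals include 0, and those of Derl3 and Ero1b, with low TPM, are the widest.

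Genes of the unfolded protein response and of general secretion that the map does not draw were counted separately. They include signal recognition particle, signal peptidase and retrieval receptor genes. The row Fkbp2 is described as elastin, so its identity is uncertain. Of 39 such genes tested, 1 row was higher and 1 lower (5.13%, against 6.92% of all tested genes). Fkbp9, a prolyl isomerase of the ER lumen, was at 200.2, 213.61 and 210.86 TPM with EMPA and 176.65, 185.4 and 181.64 TPM in OM (0.20, SE 0.042, limma adjusted p = 0.0346), and lost its call when any 1 of the 6 libraries was left out (adjusted p = 0.05004 to 0.107). The lower row has the symbol Fkbp11 but the description ADP-ribosylation factor 3 (-0.17, limma adjusted p = 0.0389, and 0.115 at most when a library was left out). A second row with the symbol Fkbp11 and a matching description was at 0.12 (limma adjusted p = 0.352). Sec11c of the signal peptidase and the retrieval receptor Kdelr3 were at 0.16 and 0.20 (limma adjusted p = 0.0595 and 0.0768), and the abundant cargo genes Tmed2 and Surf4 at 0.020 and -0.099 (limma adjusted p = 0.767 and 0.204). Of 16 heat shock genes outside the map 0 were called by limma, against 6.92% of all genes. An unadjusted p under 0.05 was reached by 4 (24.1% of all genes), and 14 were below 0 (87.5%, against 65.1%). The median of the 16 was -0.066, and -0.0077 under median-ratio scaling. Their smallest p belonged to Stip1 (-0.15), Chordc1 (-0.30), Dnajb4 (0.15) and Hspa4 (-0.11), with limma adjusted p = 0.0947, 0.0955, 0.124 and 0.173. The most abundant, the mitochondrial chaperones Hspe1 and Hspa9, were at 0.023 and -0.071. Another 18 genes belong to the 9 steps but are not placed on the map. Of these 0 were called by limma and 3 had an unadjusted p under 0.05 (6.92% and 24.1% of all genes).

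Of the genes left out by symbol, Eif2ak2 (-0.40, limma adjusted p = 0.00524), Nfe2l2 (-0.25, limma adjusted p = 0.0173) and Ddit3 (-0.20, limma adjusted p = 0.0484) fell, the last 2 losing the call in at least 4 of the 6 fits without 1 library, and Ddit3 also under median-ratio scaling (-0.14, limma adjusted p = 0.138) and without mitochondrial genes (limma adjusted p = 0.0711). Atf4 was at 0.044 and Ero1a at -0.027 (limma adjusted p = 0.609 and 0.773).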

How the data were processed

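The authors extracted RNA from rat VSMCs and sequenced paired ends of unstranded libraries. Tools named in the submitters' processing notes are DESeq2, fastp, RSEM and HISAT2 2.0.5, and no source used here names a genome build. The authors deposited TPM of 13526 genes in 6 libraries. The same table holds the authors' own log2 fold change, p-value and adjusted p-value of each gene, deposited beside the TPM, and these were not used. The sample was unknown for 0 value columns. TPM keep no depth, so no precision by depth can be given.

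Log2(TPM + 1) of the 12564 genes whose mean reached 1 TPM was tested with limma 3.58.1 (R 4.3.3), group as the only term and a trend of the variance, with Benjamini-Hochberg adjustment over all of them and a threshold of 0.05. Intervals are 95% with limma's moderated SE. The paper names this threshold and no model. The fits were tested on simulated data. Step lists came from textbook roles, and 2 members were placed by the table's description. The members and lists were chosen with earlier results of these data known. The text names called members, up to 4 per step with the smallest p, the 2 most abundant per step, and a set of core pathway genes. Hspa4l, Hyou1, Ube2d2, Sel1l, Edem3, Nploc4, Ssr1, Ssr2, Stt3a, Stt3b and other genes outside that rule were added after their values were seen. Promoters, from RefSeq, were searched in Python 3.11.15 (pandas 2.3.3). Alternatives were a pseudocount of 0.1, other filters, other scalings, a replicate block, each library left out, thresholds of 0.01 and 0.1, sums without the most abundant member, and motifs with 1 mismatch. A search for ER retrieval signals in the proteins was planned and not run, since no protein sequences were used here.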

Additional observations from a re-analysis of the deposited data

How the results depend on the processing

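The pseudocount of 0.1, the fit without a filter and the filter of 1 TPM in each library called the same 4 members. Under median-ratio scaling 10 members were higher and 0 lower. By step the higher ones were 2 each at translocation, oligosaccharyltransferase and ER lumen chaperones. A further 1 each was among cytosolic chaperones, ERAD, stress sensors and stress kinases. Of the unfolded protein response and secretory genes outside the map 3 were higher and 0 lower. Without mitochondrial genes 5 of 145 members were higher and 1 lower, against 296 and 483 of 12671 genes. The higher members were 2 at translocation, 1 among ER lumen chaperones, 1 among cytosolic chaperones and 1 among stress kinases, and the lower was in ERAD. Outside the map 2 unfolded protein response and secretory genes were higher and 0 lower. At an adjusted p of 0.01 there were 0 in either direction (16 higher and 19 lower at an unadjusted p under 0.05). At 0.1 there were 8 higher and 11 lower, and no share of all genes is given for these thresholds. With each library left out in turn, 0 to 1 members were higher and 0 lower, the 1 being Cryab without OM replicate 2. Over all tested genes the same fits called 80 to 216 higher and 245 to 438 lower, against 259 and 611 with all libraries. Translocation, ER lumen chaperones and ERAD thus had 0, and cytosolic chaperones 0 to 1. The unfolded protein response and secretory genes outside the map had 0 to 1 higher and 0 lower. With 2 libraries left in a group, these fits assume its spread is like that of the other group.

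The replicate numbers do not pair the samples by the labels, and the correlations of same-numbered samples' deviations were 0.098, 0.16 and 0.058, although each sample correlated best with its own number, a hint from the data and not from the design. With the replicate block, 4 of 144 members were higher and 6 lower, against 449 and 951 of 12564 genes. The higher members were 1 each at translocation, ER lumen chaperones, cytosolic chaperones and stress sensors. The lower were 2 in ERAD and 1 each among ER lumen chaperones, cytosolic chaperones, stress sensors and stress kinases. Outside the map 4 unfolded protein response and secretory genes were higher and 1 lower, and 1 heat shock gene was lower.

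Median-ratio scaling moved the summed TPM, as percent change, to 6.13 (translocation), 8.28 (oligosaccharyltransferase), 2.02 (lectin cycle), 2.36 (ER lumen chaperones), 3.06 (cytosolic chaperones), 0.550 (ERAD), -1.24 (stress sensors), -0.608 (kinases and death effectors), 6.47 (ER exit), 3.17 (all members) and 4.06 (members with ERSE or ERSE-II). Without its most abundant member the sum changed by 2.88 (oligosaccharyltransferase), -3.40 (stress sensors), 1.799 (lectin cycle), 4.61 (ER lumen chaperones), 1.69 (cytosolic chaperones), 0.287 (all members) and 3.42 (members with ERSE or ERSE-II) percent. With 1 mismatch allowed, 30.8% of member promoters held the XBP1 element, against 15.4% of all. The cause of these shifts was not tested.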
